A study of Mus musculus with 6 samples.

Results

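The creatine system of the heart was described here through 7 genes that were chosen by name: Ckm, Ckb, Ckmt1 and Ckmt2, which encode the creatine kinases, Slc6a8, which encodes the creatine transporter of the cell membrane, and Gatm and Gamt, which encode the enzymes of creatine synthesis. They are 7 of 20121 genes with deposited counts, and 6 of the 7 passed a filter on low counts that left 14877 genes for testing. RNA was sequenced from whole hearts of 6 mouse pups of mixed ICR and C57BL/6 background at postnatal day 14. The mutant group held 3 pups with Myh6-Cre, a transgene that makes Cre recombinase in heart muscle cells, and the TRalphaAMI allele, a knock-in that yields thyroid hormone receptor alpha in a dominant negative mutant version once Cre has acted. The control group held 3 littermates with the TRalphaAMI allele and no Cre, so both groups carried the allele. No group carried Myh6-Cre alone, and effects of Cre and of the receptor cannot be told apart. The design addresses heart gene expression that depends on thyroid hormone.

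Creatine kinases move a phosphate group between ATP and creatine, and phosphocreatine serves heart muscle as a store and shuttle of energy. Mitochondrial creatine kinase sits between the mitochondrial membranes, where it loads creatine with phosphate from newly made ATP, and the cytosolic enzymes return that phosphate to ADP beside myosin and the ion pumps. The cytosolic enzyme is a dimer of M subunits (Ckm), of B subunits (Ckb) or of 1 of each, and the B subunit is known as the form of the immature heart. Most creatine is made outside the heart, with Gatm acting in the kidney and Gamt in the liver, and heart muscle takes it up through Slc6a8.

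Libraries held 43314706 to 62095277 counts. Thra, the gene of the receptor, was at 125 to 143 CPM (counts scaled to a common library size) in the mutant hearts and at 66.8 to 81.7 CPM in the control hearts, and its counts do not separate the altered transcript from the normal one. Heart muscle markers were abundant in both groups, with summed levels over 10 genes of 39586 to 40991 CPM in mutant hearts and 44885 to 50486 CPM in control hearts. Transcripts of the mitochondrial genome took 16.7% to 18.8% of the counts in mutant hearts and 22.3% to 24.8% in control hearts. CPM values here are scaled with TMM, which places the median gene at a log2 fold change of -0.0005. Scaled by total counts alone, the median gene stood at 0.28, and a gene with no change on TMM scaling is higher by about that amount there.

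The members lay on 6 chromosomes of the mm10 build, with positions from GENCODE M21. Ckm (ENSMUSG00000030399) lies on chromosome 7 from 19404776 to 19422841 on the plus strand, and Ckb (ENSMUSG00000001270) on chromosome 12 from 111669361 to 111672338 on the minus strand. Ckmt2 (ENSMUSG00000021622) lies on chromosome 13 from 91853387 to 91876885 on the minus strand, and Ckmt1 (ENSMUSG00000000308) on chromosome 2 from 121357714 to 121363737 on the plus strand. Gatm (ENSMUSG00000027199) lies on chromosome 2 from 122594467 to 122611303 and Gamt (ENSMUSG00000020150) on chromosome 10 from 80258151 to 80261012, both on the minus strand, and Slc6a8 (ENSMUSG00000019558) on the X chromosome from 73673150 to 73682502 on the plus strand. The library kit does not mark strand, and 15.5% of the exon bases of Ckm are shared with A930016O22Rik on the opposite strand and 5.7% of those of Ckmt2 with 1700119I11Rik. A930016O22Rik had 199 to 208 counts per mutant heart and 127 to 378 per control heart, and 1700119I11Rik had 116 to 172 per mutant heart and 218 to 253 per control heart, against at least 19637 counts of Ckm or Ckmt2 in every heart.

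The promoters of the 4 members that were lower in mutant hearts on TMM scaling are shown, as the 250 bases before the start given by RefSeq in build GRCm38.p6, 5′ to 3′. Capitals mark matches to AGGTCA, the half-site of nuclear receptors, on either strand, and to CANNTG, the E-box of muscle transcription factors. As a pattern CANNTG reads alike on both strands, though a single match need not, and the capitals do not overlap.
Ckmt2, chr13:91876886-91877135, minus strand: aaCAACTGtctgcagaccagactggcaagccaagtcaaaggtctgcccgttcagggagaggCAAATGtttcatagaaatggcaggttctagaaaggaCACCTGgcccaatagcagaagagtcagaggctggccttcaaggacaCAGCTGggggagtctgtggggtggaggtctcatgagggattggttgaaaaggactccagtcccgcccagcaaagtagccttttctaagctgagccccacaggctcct
Ckm, chr7:19410844-19411093, plus strand: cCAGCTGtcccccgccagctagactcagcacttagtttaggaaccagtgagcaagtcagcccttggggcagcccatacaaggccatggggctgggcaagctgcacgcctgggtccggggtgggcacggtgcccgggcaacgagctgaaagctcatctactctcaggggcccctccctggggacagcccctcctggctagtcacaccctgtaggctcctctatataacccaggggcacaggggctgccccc
Ckb, chr12:111672339-111672588, minus strand: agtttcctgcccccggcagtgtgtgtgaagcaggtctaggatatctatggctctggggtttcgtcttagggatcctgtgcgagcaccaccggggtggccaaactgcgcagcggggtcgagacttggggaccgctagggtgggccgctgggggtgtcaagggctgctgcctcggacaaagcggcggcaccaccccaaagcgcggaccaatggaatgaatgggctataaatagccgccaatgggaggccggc
Gatm, chr2:122611278-122611527, minus strand: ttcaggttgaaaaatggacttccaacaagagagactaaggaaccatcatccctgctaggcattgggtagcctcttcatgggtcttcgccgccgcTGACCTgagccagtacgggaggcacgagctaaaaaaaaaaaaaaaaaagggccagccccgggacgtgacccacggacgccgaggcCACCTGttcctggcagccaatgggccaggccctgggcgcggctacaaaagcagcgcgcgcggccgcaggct
Ckmt2 had 4 E-box matches, whose first bases lay 248, 189, 153 and 107 bases before the start. Ckm had 1, which began 249 bases before it, Gatm had 1 at 71 bases and also a half-site at 156 bases before its start, and Ckb had neither motif. The RefSeq start of Ckm lies inside the longer span that GENCODE gives the gene. Over the window of 250 bases before to 50 after the start, 5 of the 7 promoters that RefSeq gives for 6 members held an E-box, against 72.3% of all 32851 promoters, and 2 held a half-site, against 16.3%. CATTCCT, the MCAT element, or its reverse complement AGGAATG was in none of the 7 and in 5.36% of all promoters. The promoter of Slc6a8 was not used here.

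With TMM scaling, Ckmt2, Ckm, Ckb and Gatm were lower in mutant hearts, which is 4 of the 6 members tested, 0 were higher (0 also at an unadjusted p under 0.05, and 0 with DESeq2), and Slc6a8 and Gamt stayed above the threshold of 0.05 on the adjusted p. In the same edgeR fit 37.5% of the 14877 genes were called, 19.5% as lower and 18.1% as higher in mutant hearts. With scaling by total counts, 8.11% of genes were lower and 50.3% higher, and of the members 2 were lower (Ckmt2 and Ckm) and 1 was higher (Slc6a8). With limma on log2(RPKM + 1), 8.17% of genes were lower and 49.4% higher, and with a pseudocount of 0.1 these were 8.21% and 49.7%. In both, 2 members were lower (Ckmt2 and Ckm) and 2 higher (Slc6a8 and Gamt). The CPM values of the mutant hearts lay wholly below those of the control hearts for Ckmt2, Ckm, Ckb and Gatm, as they did for 25.4% of all genes tested. Over all genes, the groups stood apart in 49.8%, including 24.4% in which mutant hearts were the higher. The median log2 fold change of the 6 members was -0.30 with TMM and -0.02 with total counts, beside -0.0005 and 0.28 over all genes tested. In whole hearts, fewer heart muscle cells and less RNA per cell cannot be told apart.

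**Figure D1:**
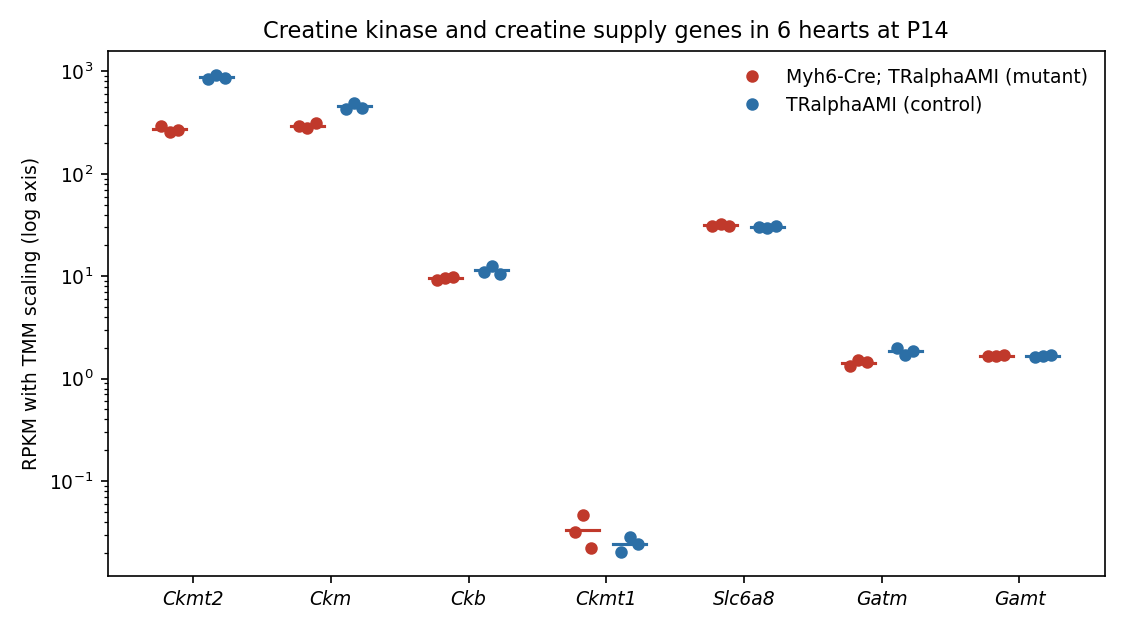
Levels of the 7 genes in each heart as RPKM with TMM scaling on a log axis, with points for hearts and bars for group means of 3. On TMM scaling mutant hearts lie below control hearts for Ckmt2, Ckm, Gatm and Ckb (the sign of Ckb turns with total counts), while the groups overlap for Slc6a8, Gamt and Ckmt1.

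The mitochondrial kinase of muscle showed the largest change of the 6 tested members. Ckmt2 was at 443, 386 and 402 CPM in the mutant hearts, against 1260, 1392 and 1304 CPM in the control hearts. The highest mutant heart was far below the lowest control heart. Means were 410 ± 29.1 CPM in mutant hearts and 1318 ± 67.3 CPM in control hearts (SD, n = 3 each), and Ckmt2 fell 3.21-fold (log2 fold change -1.68 ± 0.08, SE; edgeR adjusted p = 4.67e-07). The log2 fold change lay between -1.74 and -1.40 in all 14 alternative fits, which included scaling by total counts and leaving out each heart.

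Ckmt1, the ubiquitous mitochondrial kinase that is known from brain and other tissues outside striated muscle, was near the limit of detection. The mutant hearts held 4, 6 and 3 counts and the control hearts 2, 4 and 3 counts, so the gene did not pass the filter. The ratio of summed counts, 13 in mutant and 9 in control hearts, was 1.34 after scaling, with an exact 95% interval of 0.53 to 3.56 that covers counting error only. A difference was not detectable at this depth, and nearly all counts of mitochondrial kinase in every heart came from Ckmt2.

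Ckm, the muscle subunit of the cytosolic enzyme, was at 864, 823 and 913 CPM in the mutant hearts, against 1251, 1455 and 1297 CPM in the control hearts. The groups did not overlap, and control replicate 2 was the highest of the 6. Ckm averaged 867 ± 44.9 CPM in mutant hearts and 1334 ± 107 CPM in control hearts (SD, n = 3 each). It fell 1.54-fold (log2 fold change -0.62 ± 0.08, SE; edgeR adjusted p = 2.01e-04). With total counts the log2 fold change was -0.34 and still passed (edgeR adjusted p = 0.00519).

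Ckb, the brain-type subunit, was at 27.1, 27.7 and 28.7 CPM in the mutant hearts, against 32.1, 36.5 and 30.6 CPM in the control hearts. The groups did not overlap, but the highest mutant heart was close to the lowest control heart. Ckb fell 1.19-fold with TMM (log2 fold change -0.25 ± 0.08, SE; edgeR adjusted p = 0.0272), but it was at 0.03 with total counts (adjusted p = 0.738). The call was lost without mutant replicate 1 (adjusted p = 0.0609), mutant replicate 2 (0.0825) or control replicate 2 (0.108).

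The balance of the cytosolic subunits was read within each heart, where the scaling between libraries cancels. Per length, as deposited RPKM, Ckb made up 3.06%, 3.28% and 3.06% of Ckb plus Ckm in the mutant hearts, against 2.52%, 2.47% and 2.32% in the control hearts. Every mutant heart was above every control heart, and Ckm was the main subunit in all 6. The Ckb share averaged 3.13% ± 0.126 in mutant hearts and 2.44% ± 0.102 in control hearts (SD, n = 3 each), which is 1.29 times higher. A two-sided exact permutation test gave p = 0.1, the smallest p that 3 hearts against 3 can give. The size of the share depends on the gene length used: per length of the principal transcript in GENCODE, which is 1472 bases for Ckb where the deposited RPKM used 2912, it was 5.65% ± 0.222 in mutant hearts and 4.42% ± 0.181 in control hearts (SD, n = 3 each). On either length the ratio of the groups was 1.28 to 1.29, with Ckb lower and Ckm lower still in mutant hearts on TMM scaling.

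The mitochondrial and cytosolic kinases changed unequally. Per length, Ckmt2 and Ckmt1 together were 49.4%, 47.1% and 45.6% of the 4 kinases in the mutant hearts, against 65.8%, 64.7% and 65.8% in the control hearts. The groups were far apart relative to their spread, at 47.3% ± 1.91 in mutant hearts and 65.4% ± 0.666 in control hearts (SD, n = 3 each; two-sided exact permutation p = 0.1, the smallest possible). The share itself depends on the length used: as counts it was 31.5% ± 1.65 in mutant and 49.1% ± 0.734 in control hearts, and per length of the shortest coding transcript 27.7% ± 1.54 in mutant and 44.6% ± 0.724 in control hearts (SD, n = 3 each). The mitochondrial kinases were thus the larger part in control hearts by the deposited lengths but not by these. The ratio of Ckmt2 to Ckm, chosen after the values were seen, was 1.01, 0.920 and 0.863 in the mutant hearts and 1.97, 1.88 and 1.97 in the control hearts, a log2 difference of -1.06. That difference holds for any pair of gene lengths, while the order of the pair does not. Ckm has 2 annotated coding transcripts, and with the shorter of 1235 bases the ratio was 0.394 ± 0.0302 in mutant and 0.822 ± 0.0238 in control hearts (SD, n = 3 each). With the principal transcripts it was 0.875 ± 0.0671 in mutant and 1.83 ± 0.0527 in control hearts (SD, n = 3 each).

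The summed level of the 4 kinases, as RPKM with TMM scaling, was 600, 549 and 590 in the mutant hearts, against 1281, 1441 and 1326 in the control hearts. Mutant hearts averaged 580 ± 27.2 and control hearts 1350 ± 82.5 (SD, n = 3 each), a ratio of 0.430. The ratio was 0.523 as deposited RPKM, without TMM scaling. As plain counts, the 4 genes took 0.144% ± 0.00703 of each library in mutant hearts and 0.243% ± 0.0164 in control hearts (SD, n = 3 each). Each of these gave p = 0.1 in the two-sided exact permutation test, the smallest possible.

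**Figure D2:**
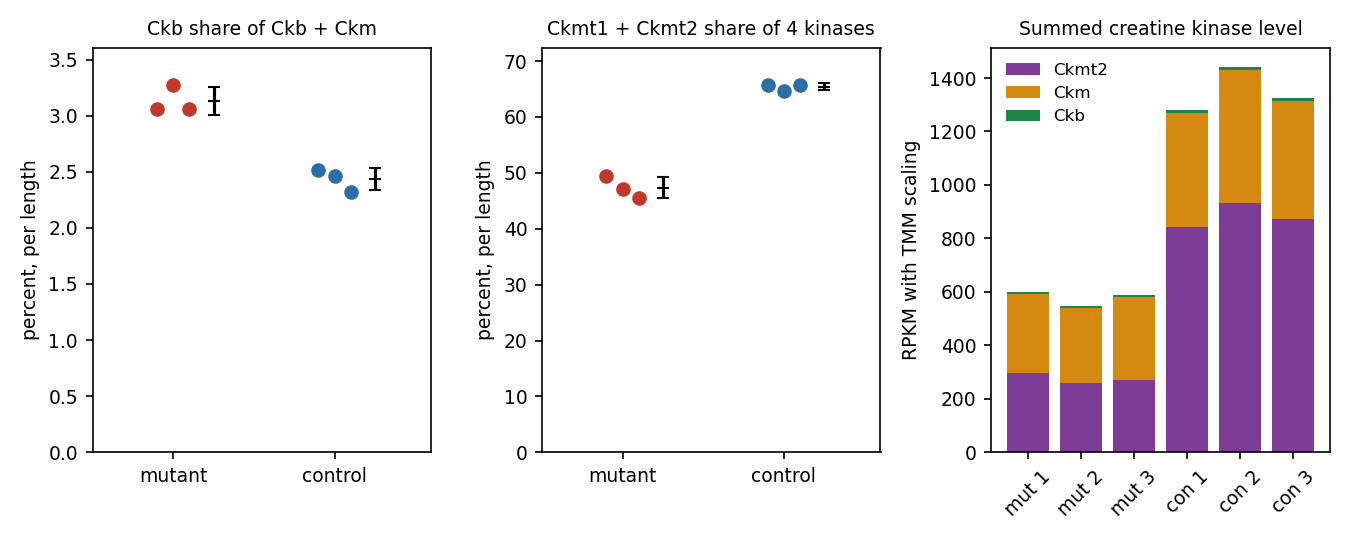
Left and centre, the percentage of Ckb in Ckb plus Ckm and of the mitochondrial kinases in all 4 kinases, per length, with points for hearts and bars for mean and SD (n = 3). Right, stacked bars of RPKM with TMM scaling in each heart: mutant hearts have shorter bars (549 to 600) than control hearts (1281 to 1441), mostly through Ckmt2, and a larger Ckb share.

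With TMM, the 3 genes of creatine supply differed less between the groups than Ckmt2 and Ckm. Slc6a8, which imports creatine together with sodium and chloride, was at 161, 171 and 161 CPM in the mutant hearts, against 159, 156 and 163 CPM in the control hearts. The groups overlapped, and on the log2 scale mutant hearts were 0.05 ± 0.06 (SE) higher, within a 95% interval of -0.08 to 0.17 (edgeR adjusted p = 0.557). With total counts it was 0.33 (edgeR adjusted p = 0.00107), close to the 0.28 of the median gene. The log2 ratio of Ckm to Slc6a8 within a heart, another ratio chosen after the values were seen, was 3.24 ± 0.117 in mutant hearts and 3.90 ± 0.138 in control hearts (SD, n = 3 each), and the groups did not overlap (two-sided exact permutation p = 0.1, the smallest possible).

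Gatm, which makes guanidinoacetate from arginine and glycine in the first step of synthesis, was at 4.03, 4.58 and 4.38 CPM in the mutant hearts, against 6.02, 5.08 and 5.55 CPM in the control hearts. In CPM the groups did not overlap, but they did in raw counts, of 204 to 238 per mutant heart and 236 to 286 per control heart. Gatm fell 1.28-fold (log2 fold change -0.35 ± 0.11, SE; edgeR adjusted p = 0.0305). The call was lost with total counts, at -0.07 (adjusted p = 0.630), and on leaving out any 1 heart other than control replicate 2 (adjusted p of 0.0583 to 0.0861).

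Gamt, which adds the methyl group that turns guanidinoacetate into creatine, was at 2.43, 2.40 and 2.47 CPM in the mutant hearts, against 2.37, 2.41 and 2.46 CPM in the control hearts. Its log2 fold change was 0.01 ± 0.12 (SE), with a 95% interval of -0.26 to 0.27 (edgeR adjusted p = 0.963), and its sign turned without mutant replicate 3 or control replicate 1. The log2 ratio of Gatm to Gamt, per length, was -0.33, -0.12 and -0.23 in the mutant hearts, against 0.29, 0.02 and 0.12 in the control hearts. By these lengths Gatm was the lower of the pair in every mutant heart and the higher in every control heart, but that order depends on the lengths. As counts Gatm was the higher in every heart, at 204 to 238 against 122 to 134 of Gamt per mutant heart. Control hearts held 236 to 286 counts of Gatm and 93 to 136 of Gamt. The log2 difference between the groups was -0.37 per length and as counts (two-sided exact permutation p = 0.1 in both, the smallest possible).

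**Figure D3:**
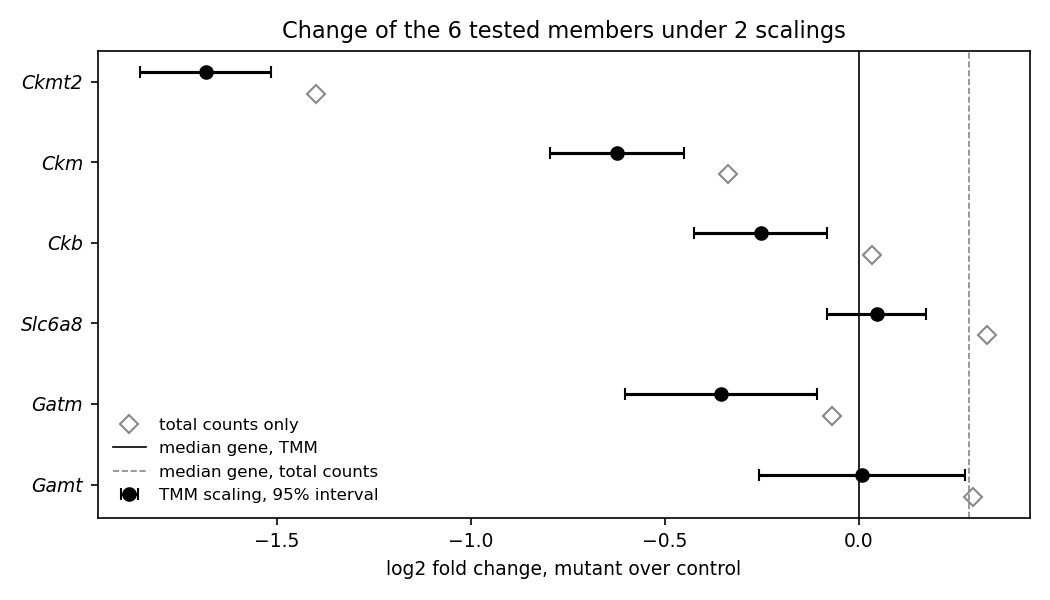
Log2 fold changes of the 6 tested members, mutant over control, with TMM scaling and 95% intervals (filled) and with total counts (open diamonds), and the median of all genes under each scaling as vertical lines. Ckmt2 and Ckm lie to the left of 0 under both scalings and passed the test in both. Gatm also lies to the left and Slc6a8 and Gamt to the right in both, while Ckb changes side.

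Ordered by mean RPKM with TMM scaling, the mutant hearts had Ckm (296), Ckmt2 (275), Slc6a8 (31.4), Ckb (9.55), Gamt (1.67), Gatm (1.43) and Ckmt1 (0.0335). In that order only Ckm and Ckmt2 overlapped as neighbours. The control hearts had Ckmt2 (883), Ckm (456), Slc6a8 (30.4), Ckb (11.4), Gatm (1.84), Gamt (1.66) and Ckmt1 (0.0243), and there only Gatm and Gamt overlapped. Among all 20121 genes by mean deposited RPKM, Ckmt2 ranked 83 in mutant and 31 in control hearts, and Ckm ranked 73 in mutant and 62 in control hearts.

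Some genes had nearly the same profile over the 6 hearts, which form 2 groups, so the likeness is a description. The measure was the root mean square difference of centred log2 CPM among 8748 named genes with a mean of at least 10 CPM. Nearest to Ckmt2 were Hspb8 (0.0459), Bsg (0.0581) and Stat5a (0.063), and among the nearest to Ckm were Sdr39u1 (0.0279) and Mrps24 (0.0279). Nearest to Ckb were Traf3 (0.0265), Aig1 (0.0276) and Slc37a4 (0.0307), and nearest to Slc6a8 were Dhx57 (0.0141), Tdp2 (0.0149) and Marf1 (0.0161).

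Genes that pass ADP, ATP and phosphate across the mitochondrial membranes, the partners of Ckmt2, were lower or did not pass the test with TMM. Of 6 tested, 4 fell and 2 did not pass, with a median log2 fold change of -0.26. With total counts the median was 0.02, below the 0.28 of all genes, and 2 were lower and 2 higher. Of all genes tested, 19.5% fell and 18.1% rose with TMM, and with total counts 8.11% were lower and 50.3% higher. Slc25a4, the ADP/ATP carrier of muscle, fell 1.68-fold, to 3210 ± 122 CPM in mutant hearts against 5400 ± 441 CPM in control hearts (SD, n = 3 each), and the outer membrane channel gene Vdac1 fell 1.43-fold. The phosphate carrier gene Slc25a3 fell by 0.33 on the log2 scale with TMM, a call lost with total counts, and Vdac3 by 0.20, though it turned to 0.08 there. Within each heart, the log2 ratio of Ckmt2 to Slc25a4 per length was -2.31 ± 0.059 in mutant hearts and -1.37 ± 0.0527 in control hearts (SD, n = 3 each), so Ckmt2 was lower also relative to the carrier (two-sided exact permutation p = 0.1, the smallest possible; ratio chosen after the values were seen).

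Other enzymes that move phosphate among nucleotides, listed together with the AMP deaminases, went both ways. Of 14 tested, 3 rose, 5 fell and 6 did not pass, with a median of 0.03 (0.31 with total counts, with 8 higher and 2 lower). Among all genes tested, 18.1% rose and 19.5% fell with TMM. With total counts 50.3% were higher and 8.11% lower, at a median of 0.28, so the list's median was near that of all genes there. Adk, which makes AMP from adenosine, fell 2.27-fold, and Ampd3, an AMP deaminase, fell by 0.78 on the log2 scale. Guk1, the guanylate kinase, fell by 0.29 with TMM and was at -0.0046 with total counts, and Ak4, a mitochondrial adenylate kinase, rose 1.28-fold. Ak1, the cytosolic adenylate kinase of muscle, was at 381 CPM in mutant and 455 CPM in control hearts and fell by 0.26 with TMM (edgeR adjusted p = 0.0170), but was at 0.03 with total counts.

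Of 3 further genes that handle creatine or phosphocreatine, Alpl passed the test. Alpl, the tissue-nonspecific alkaline phosphatase, which in mouse fat cells has been described as splitting phosphocreatine, was at 7.25 ± 0.707 CPM in mutant hearts and 34.7 ± 5.15 CPM in control hearts (SD, n = 3 each). It fell 4.79-fold (edgeR adjusted p = 1.53e-06). The monocarboxylate transporter genes Slc16a12 (log2 fold change 0.40) and Slc16a9 (-0.45) did not pass, at edgeR adjusted p of 0.0676 and 0.0575. With total counts Slc16a12 passed as higher, at 0.69 (edgeR adjusted p = 0.00446), and Slc16a9 did not pass. The list's median was -0.45 (-0.17 with total counts), beside -0.0005 (0.28) over all genes tested. Of all genes, 37.5% were called with TMM, and 50.3% were higher and 8.11% lower with total counts.

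Of 14 tested genes that supply arginine, glycine or methyl groups for creatine synthesis, 2 rose, 4 fell and 8 did not pass with TMM. The median was -0.11 and turned to 0.17 with total counts, with 4 higher and 1 lower. All genes tested had 18.1% higher and 19.5% lower with TMM, and 50.3% and 8.11% with total counts, at a median of 0.28. Mtr, the methionine synthase, fell 1.91-fold, and the arginine transporter gene Slc7a1 fell by 0.50 on the log2 scale, a call lost with total counts. Shmt1, which forms glycine from serine in the cytosol, rose 1.74-fold, and Slc7a2, another arginine transporter gene, rose 1.52-fold. Among 6 genes of the M-band, where part of the muscle kinase is anchored beside myosin, 1 fell, 1 rose and 4 did not pass, and with total counts 1 was lower and 4 higher. Fhl2, a LIM protein known to hold metabolic enzymes there, fell 1.59-fold, and Obsl1 rose 1.40-fold, while the median was 0.07 (0.36 with total counts). The share called with TMM, 2 of 6, was near the 37.5% of all genes.

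Subunits of AMP-activated protein kinase, the sensor of AMP and ATP, moved in both directions. Of 8 genes, with the upstream kinase gene Stk11 among them, 3 rose, 2 fell and 3 did not pass, with a median of 0.18. With total counts 5 were higher and 2 lower, with a median of 0.47. Over all genes tested 37.5% were called with TMM, 18.1% as higher and 19.5% as lower. Total counts gave 50.3% of all genes higher and 8.11% lower, at a median of 0.28. Prkag2, a nucleotide-binding gamma subunit, rose 3.35-fold, to 123 ± 2.69 CPM in mutant hearts against 36.7 ± 1.61 CPM in control hearts (SD, n = 3 each; edgeR adjusted p = 1.45e-07). Another gamma subunit gene, Prkag3, rose 3.22-fold to 8.25 CPM. Of the beta subunits, Prkab1 fell 1.66-fold and Prkab2 rose 1.34-fold.

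**Figure D4:**
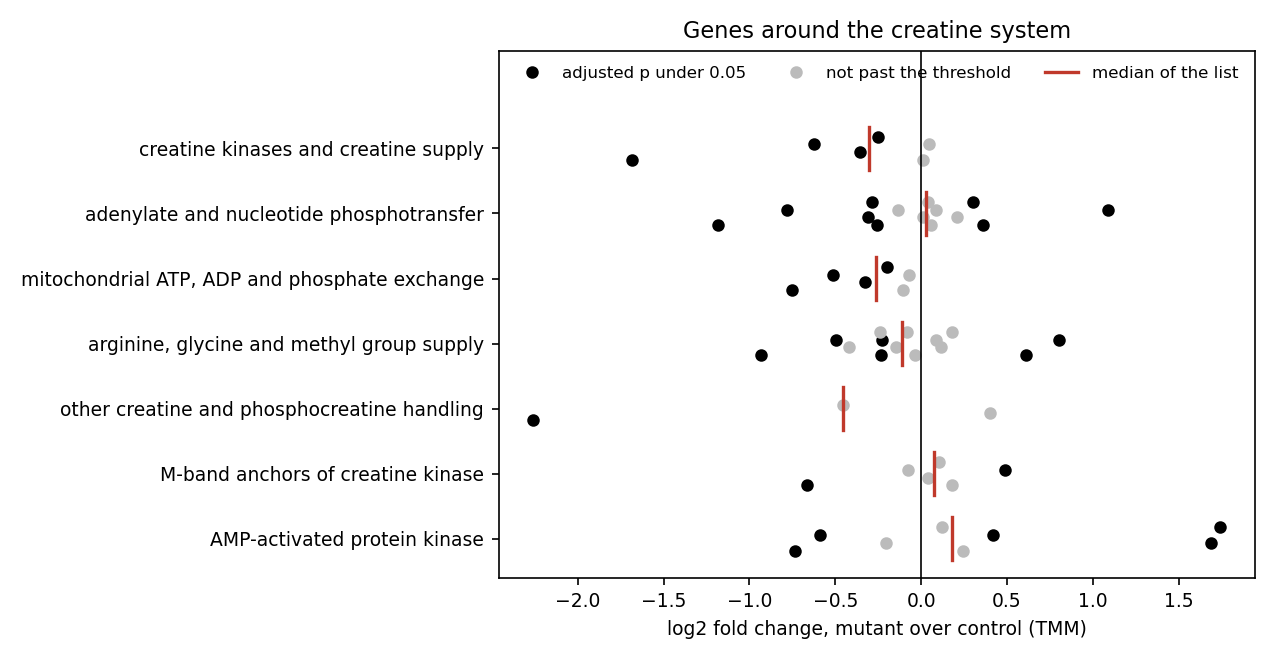
Log2 fold changes with TMM scaling for every tested gene of 7 lists around the creatine system, black where the edgeR adjusted p is under 0.05, with a red bar at the median of each list. Ckmt2 and Alpl lie farthest to the left and Prkag2 and Prkag3 farthest to the right.

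Ckm and Ckmt2 are also made by skeletal muscle and Ckb by nerve, smooth muscle and other cells, so markers of these cells were summed. Skeletal muscle markers, with 7 of 9 genes counted, summed to 2.41 to 2.78 CPM in mutant hearts and 3.88 to 4.80 CPM in control hearts, against at least 386 CPM of Ckm and of Ckmt2 in every heart. Tnni2 was the 1 of 4 tested that fell. Nerve and glia markers (8 of 9 counted) summed to 14.4 to 19.5 CPM in mutant and 16.6 to 19.5 CPM in control hearts, with 1 of 4 tested lower and, with total counts, 2 higher. Smooth muscle and pericyte markers (8 of 8) summed to 1824 to 1881 CPM in mutant and 1962 to 2056 CPM in control hearts, with 2 of 8 higher and 2 lower (3 higher and 0 lower with total counts). Endothelial markers (6 of 6) summed to 1188 to 1274 CPM in mutant and 1386 to 1508 CPM in control hearts, and 4 of 6 fell with TMM, calls that were all lost with total counts. For comparison, 19.5% of all genes tested were lower and 18.1% higher with TMM, and 8.11% and 50.3% with total counts. The part of nerve, smooth muscle and other cells in the small change of Ckb was not tested.

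Among the other marker lists, fibroblast genes (7 of 7 counted) summed to 2782 to 3089 CPM in mutant and 2470 to 2702 CPM in control hearts, with 3 of 7 higher with TMM and all 7 with total counts. Macrophage genes (5 of 5) summed to 42.4 to 44.2 CPM in mutant and 61.4 to 69.8 CPM in control hearts, with 4 of 5 lower (3 with total counts). Red blood cell genes (5 of 5) ranged from 91.2 to 242 CPM in mutant and 157 to 245 CPM in control hearts, with overlapping ranges. Fat cell genes (4 of 5) summed to 559 to 792 CPM in mutant and 818 to 942 CPM in control hearts, nearly all of it Fabp4, which endothelium also makes, while Ucp1 and Plin1 were near 0. Beside these lists, 19.5% of all genes tested were lower and 18.1% higher with TMM, and 8.11% lower and 50.3% higher with total counts. Of the 10 heart muscle markers, 5 were lower and 0 higher with TMM, with a median of -0.14, and 2 were lower and 3 higher with total counts. Their part in the lower levels of Ckmt2 and Ckm was not tested.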

How the data were processed

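RNA from 6 hearts was prepared with the Illumina TruSeq RNA kit, version 2, per the labels' protocols. Both deposited units were used: whole read counts by Ensembl gene, and the authors' RPKM, which divides those counts by gene length and library total (checked: 1 factor per library links them to within 1.07e-08). The submitters' processing notes list the build mm10 with featureCounts 1.5.1, STAR 2.5.2b and cutadapt 1.9. Annotation, strand setting and treatment of shared reads: not given in the sources used here.

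GENCODE M21 named 20081 of 20121 identifiers. Counts were filtered with filterByExpr, scaled with TMM and tested with edgeR 4.0.16 (quasi-likelihood, group as the only term) in R 4.3.3, with Benjamini-Hochberg adjustment over all 14877 genes tested and a threshold of 0.05. The SE is the log2 fold change divided by the square root of F, and 95% intervals use it. Tests were checked on simulated counts. Shares and ratios were tested by exact permutation in scipy 1.17.1. DESeq2 1.42.0, limma 3.58.1 on log2(RPKM + 1) and log2(RPKM + 0.1), other scalings, no filter, a replicate block and leaving out each heart were alternatives, and transcript lengths were added after the data were seen. The members, lists and tests were chosen with earlier results of these data known. Named genes are the members, up to 4 called genes per pathway list with the smallest adjusted p (or, with none called, the 2 of highest CPM), and the 3 nearest profiles for 4 members, of which 1 is not reported here. Ak1, Slc16a12, Slc16a9 and the marker genes named were chosen after their values were seen. Each heart is from a separate pup. The edgeR p-values set the group difference against the spread of hearts within groups, which is estimated in part from all genes. The permutation p-values set it against all regroupings of these 6 hearts. Groups and replicate numbers are from the sample titles, and all libraries share 1 sequencing run identifier. Counts per library were 43314706 to 62095277, and intervals on summed counts cover counting error only.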

Additional observations from a re-analysis of the deposited data

How the results depend on the processing

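Calls of small changes differed between fits. With total counts, limma on log2(RPKM + 1) and limma on log2(RPKM + 0.1), 7479, 7349 and 7391 genes were higher and 1207, 1215 and 1221 lower in mutant hearts, against 2688 and 2898 with TMM. Of the members, 1, 2 and 2 were then higher and 2, 2 and 2 lower. Ckb was at 0.0334, 0.0323 and 0.0353, Gatm at -0.0683, -0.0451 and -0.0686, and Slc6a8 passed as higher at 0.33, 0.32 and 0.33. Gamt passed at 0.18 and 0.28 with limma on the RPKM scales, but not with edgeR on total counts (0.29, adjusted p = 0.0623). The median gene was at 0.28, 0.17 and 0.26. These 3 fits scale by library total and leave out the TMM factors, which were 1.08 to 1.12 in mutant and 0.905 to 0.908 in control hearts. Why those factors differ between the groups was not tested.

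Leaving out 1 heart gave 2039 to 2661 genes higher and 2234 to 2856 lower, and 2 to 3 members lower, with 2 without mutant replicate 1 or 2. Log2 fold changes were -0.67 to -0.56 for Ckm and -1.74 to -1.64 for Ckmt2 (all called), -0.31 to -0.18 for Ckb, -0.42 to -0.30 for Gatm, 0.02 to 0.06 for Slc6a8, and -0.0089 to 0.02 for Gamt, which was at -0.0089 without mutant replicate 3 and -0.0047 without control replicate 1. The Ckb share difference was 0.623 to 0.738 percentage points, and that of the mitochondrial share -19.1 to -17.2.

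Same-numbered hearts had correlations of deviations of 0.15, -0.05 and 0.10, and not every heart correlated best with its own number, so the numbers were not taken as pairs. With the replicate block, 3090 genes were higher and 3229 lower, and the same 4 members were called, Ckb at -0.25 (edgeR adjusted p = 0.0211). With DESeq2, its size factors, no filter, or TMM without mitochondrial genes, all 4 calls were kept. Depth limits Ckmt1 most.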
